A study of Homo sapiens with 6 samples.

Results

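The 34 genes described here encode the Wnt signals and the proteins that receive them at the cell surface. They comprise the 19 human WNT ligand genes and 15 receptor genes, namely the 10 Frizzled genes FZD1 to FZD10, the co-receptors LRP5 and LRP6, and the alternative receptors ROR1, ROR2 and RYK. They were chosen by gene family, by a rule that uses no ChIP value, although earlier results of these data were known when the families were picked. All 34 were found among the 20162 protein-coding genes of the hg19 annotation. For each gene, the called regions of KDM3B and of H3K9me2 were collected within 5 kb of every annotated transcription start site (TSS), here called the TSS window, and in the gene body.

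Wnt ligands are secreted, lipid-modified glycoproteins that bind the cysteine-rich domain of a Frizzled receptor. When LRP5 or LRP6 joins this complex, the complex that destroys β-catenin is inhibited, and β-catenin enters the nucleus and acts with Tcf/Lef factors on target genes. Other ligands, such as WNT5A, act through ROR1, ROR2 or RYK without β-catenin. In the intestinal crypt, Wnt signals from epithelial and stromal cells maintain the stem cells. H3K9me2 is a histone mark of repressed chromatin, and KDM3A and KDM3B are demethylases that remove it.

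ChIP-seq was carried out in HCT116 cells, a long-established line from a human colorectal carcinoma that carries an activating β-catenin mutation. Control cells (HCT116/Scrsh, labelled Con) carried a scrambled shRNA, and HCT116/ABsh-1 cells (labelled KD) carried an shRNA that depletes KDM3A and KDM3B together. The study's methods describe stable shRNA lines, whereas the labels describe siRNA transfection. Each antibody was used on 1 library per cell population, so no difference below has a replicate check and no test was possible. The lists of HCT116/Scrsh held 17638 KDM3B and 11645 H3K9me2 regions, and those of HCT116/ABsh-1 held 8046 and 88855. Read numbers are unknown, so a gene without a region is one where none was detectable at the depth of that library. Neither expression nor the amount of KDM3A or KDM3B protein is in these lists.

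At the Wnt ligand and receptor genes, the lists of the cell populations differed more for H3K9me2 than for KDM3B. In HCT116/Scrsh, 5 of 19 ligands and 2 of 15 receptors had an H3K9me2 region in the TSS window, whereas 10.2% of protein-coding genes did. In HCT116/ABsh-1 these counts were 15 ligands and 10 receptors, beside 49.3% of protein-coding genes. KDM3B regions lay in the TSS windows of 6 ligands and 6 receptors in HCT116/Scrsh (35.0% of protein-coding genes) and of 6 ligands and 4 receptors in HCT116/ABsh-1 (19.2%). The KDM3B count was thus lower after the knockdown at receptors and equal at ligands.

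Wnt ligand windows are rich in GC, with a median of 55% (range 38.3% to 62.2%), beside 47.3% (39.1% to 59.9%) for receptors and 45.6% for protein-coding genes. The counts were therefore read against protein-coding genes whose window GC lay within 2 percentage points of each member. At equal GC, 14.1 ligands and 8.56 receptors would carry an H3K9me2 region in HCT116/ABsh-1, close to the 15 and 10 found. With window length matched as well, these figures were 14.1 and 7.77. With CpG per base matched in place of GC they were 12.5 and 10.4, so the receptors found were then just below the figure. For H3K9me2 in HCT116/Scrsh the equal-GC figures were 2.36 ligands and 1.69 receptors, beside 5 and 2 found. For KDM3B they were 7.60 ligands and 5.53 receptors in HCT116/Scrsh, beside 6 and 6 found, and 4.45 ligands and 3.12 receptors in HCT116/ABsh-1, beside 6 and 4 found. No error can be given for these differences.

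**Figure D1:**
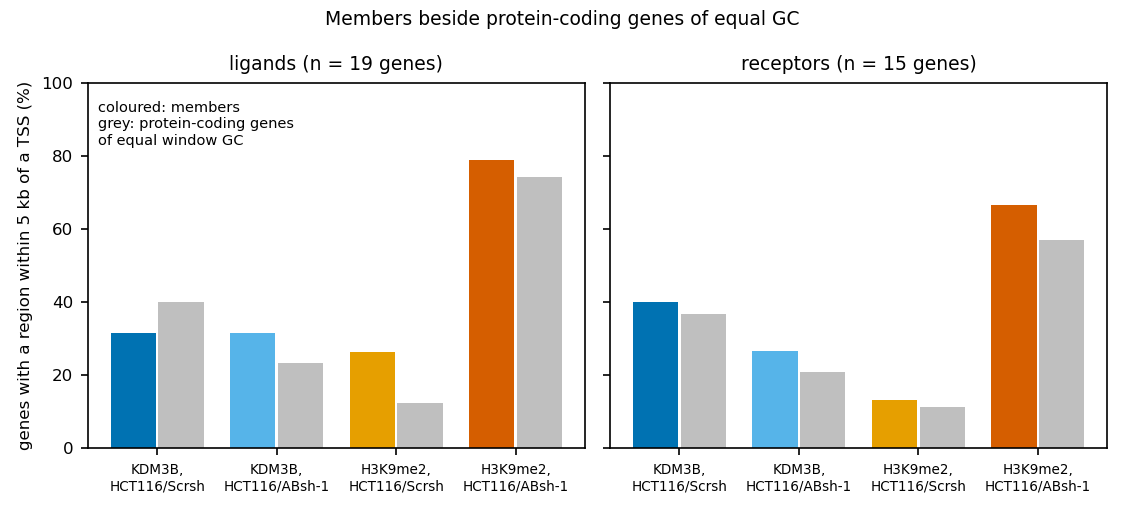
Percent of genes with a called region within 5 kb of a TSS (vertical axis) in each of the 4 lists (horizontal axis), for the 19 ligands and the 15 receptors. Coloured bars are the members and grey bars the protein-coding genes of equal window GC. Both bars are tallest for H3K9me2 in HCT116/ABsh-1, at 78.9% and 74.3% for ligands and 66.7% and 57.1% for receptors.

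The lists of 1 antibody differ in length, which alone changes how many genes carry a region. When each pair of lists was cut to equal numbers by score, 7 ligands and 5 receptors had H3K9me2 in HCT116/ABsh-1, still above the 5 and 2 of HCT116/Scrsh, and the share of protein-coding genes was 17.0% beside 10.2%. The same cut turned the direction of KDM3B: 4 ligands and 1 receptor had a region in HCT116/Scrsh, beside 6 and 4 in HCT116/ABsh-1, with 19.6% and 19.2% of protein-coding genes. No fall of KDM3B at the receptors can be read from these counts.

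Among the ligand genes, the KDM3B region with the highest score was one shared by WNT3 and WNT9B. WNT3, a ligand of the β-catenin pathway, and WNT9B, which acts in kidney tubule formation, lie head to head on chromosome 17 with 46 bp between their outermost annotated ends. A 300-bp KDM3B region in HCT116/Scrsh (chr17:44913301-44913600) fell in both TSS windows and scored above 97.7% of the regions of its list. In HCT116/ABsh-1 the region was listed again, at 400 bp (chr17:44913201-44913600), and scored above 97.8% of that list. It lay 2930 bp from the nearest annotated WNT3 start and 2883 bp from the nearest WNT9B start, but 17392 and 15499 bp from their canonical starts, inside an alternative WNT9B transcript. The plus strand of the HCT116/Scrsh region is shown because no KDM3B region of that list scored higher at any of the 34 genes, with CG dinucleotides in capitals. It held 6 of them in 300 bases with a GC content of 56%, and a long GT repeat.
WNT3 and WNT9B, KDM3B, hg19 chr17:44913301-44913600: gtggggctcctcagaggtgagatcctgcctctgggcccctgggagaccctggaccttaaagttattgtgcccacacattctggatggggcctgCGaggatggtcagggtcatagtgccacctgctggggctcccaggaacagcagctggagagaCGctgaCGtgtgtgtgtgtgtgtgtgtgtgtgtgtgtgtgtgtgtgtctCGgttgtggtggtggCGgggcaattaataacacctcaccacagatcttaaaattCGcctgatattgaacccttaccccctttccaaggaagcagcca

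In the TSS windows of the other 4 ligands with KDM3B in HCT116/Scrsh, 100 to 300 bp were covered. WNT9A carried 300 bp in intron 1, 1283 bp downstream of its TSS, and 200 of these bases were listed again in HCT116/ABsh-1. WNT7B, a ligand expressed in many epithelia, had 100 bp in HCT116/Scrsh at 2808 bp upstream and 600 bp in HCT116/ABsh-1 over the same place, a wider region after the knockdown than before. WNT10A, a ligand needed for teeth and hair, had 100 bp in each list, but at places 6600 bp apart. Both lists thus gave overlapping regions at WNT3, WNT9B, WNT7B and WNT9A and separate ones at WNT10A.

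The TSS windows of WNT5B and WNT10B had KDM3B in a single list each. WNT5B, a ligand of β-catenin-independent signalling, had 200 bp in intron 3 in HCT116/Scrsh and none in its TSS window in HCT116/ABsh-1. In its long gene body, 2 further KDM3B regions were listed at overlapping places in both cell populations, and their scores were above 96.8% and 97.6% of the list in HCT116/Scrsh. The former of these also lies in the neighbouring gene FBXL14, so it cannot be given to WNT5B alone. WNT10B had a 100-bp region in HCT116/ABsh-1 alone, at 232 bp upstream of its TSS and with a score above 25.8% of its list. WNT10B was the only ligand with KDM3B within 500 bp of its canonical TSS in any list. That region is shown on the plus strand, CG dinucleotides in capitals.
WNT10B, KDM3B in HCT116/ABsh-1, hg19 chr12:49365701-49365800: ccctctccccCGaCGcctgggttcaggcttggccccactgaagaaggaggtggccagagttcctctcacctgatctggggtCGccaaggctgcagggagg

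At some receptors KDM3B lay close to an annotated start site. FZD1 carried a 200-bp region centred 148 bp upstream in HCT116/Scrsh, and FZD2 a 100-bp region 902 bp upstream, and neither gene had one in HCT116/ABsh-1. ROR2, a receptor tyrosine kinase-like protein for WNT5A, had 200 bp in intron 1 in HCT116/Scrsh. This region lay 62 bp from the nearest annotated start and 1410 bp from the canonical one, and the ROR2 window had none in HCT116/ABsh-1. RYK, another receptor of this kind, had 100 bp centred 149 bp upstream of its TSS in HCT116/Scrsh, besides 100 bp near an alternative start, and 200 bp centred 99 bp upstream in HCT116/ABsh-1. ROR1 had its promoter region in HCT116/ABsh-1 only, 100 bp centred 38 bp upstream, with a score above 8.90% of its list. Of the 15 receptors, 3 were thus in the HCT116/Scrsh list only, 1 in the HCT116/ABsh-1 list only and 3 in both, beside 1, 1 and 5 of the 19 ligands. Of protein-coding genes 20% were in the HCT116/Scrsh list only, 4.24% in the HCT116/ABsh-1 list only and 15% in both, and the receptors' 20%, 6.67% and 20% lay near these shares.

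These promoter regions at the receptors are printed to show their base composition, plus strand, with CG dinucleotides in capitals. The FZD1 region held 17 CG dinucleotides in 200 bases, the RYK region 10 in 100 bases and the ROR1 region 7 in 100 bases. Among other KDM3B regions, the WNT3 and WNT9B region above, which lay farther from any start, had 2 per 100 bases. The WNT10B region had 3, the WNT9A region of HCT116/Scrsh 4.33 and the FZD2 region 5. These regions were picked singly, so no difference between ligands and receptors can be read from them.
FZD1, KDM3B in HCT116/Scrsh, hg19 chr7:90893501-90893700: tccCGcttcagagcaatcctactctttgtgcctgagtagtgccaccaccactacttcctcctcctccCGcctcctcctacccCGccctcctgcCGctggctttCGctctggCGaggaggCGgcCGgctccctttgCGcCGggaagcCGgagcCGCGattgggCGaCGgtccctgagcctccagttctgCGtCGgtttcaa
RYK, KDM3B in HCT116/Scrsh, hg19 chr3:133969801-133969900: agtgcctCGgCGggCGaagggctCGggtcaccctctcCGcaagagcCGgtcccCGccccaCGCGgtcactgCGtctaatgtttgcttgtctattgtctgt
ROR1, KDM3B in HCT116/ABsh-1, hg19 chr1:64239601-64239700: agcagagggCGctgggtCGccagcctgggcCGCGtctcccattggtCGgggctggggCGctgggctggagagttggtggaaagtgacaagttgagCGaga

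LRP5 and LRP6, closely related co-receptors that are phosphorylated when Wnt binds, differed in these lists. LRP5 had 3 KDM3B regions in each list, and those counted in its TSS window lay in intron 22, at 451 bp from an alternative start near the end of the gene, with 200 bp before and 300 bp after the knockdown. LRP6 had no region of any list in its window or its body. The windows differed in base composition, with 54.9% GC in LRP5 and 40.3% in LRP6. Of protein-coding genes of equal GC, 43.3% and 31.4% had KDM3B in HCT116/Scrsh, and 89.0% and 22.6% had H3K9me2 in HCT116/ABsh-1. FZD3 carried 100 bp of KDM3B in each cell population, at 4079 bp upstream in HCT116/Scrsh and at 79 bp upstream in HCT116/ABsh-1, and the former lies in the neighbouring gene FBXO16.

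Within 500 bp of the canonical TSS, KDM3B covered no base of any ligand in HCT116/Scrsh, whereas it covered 2% of these bases in receptors and 3.93% in protein-coding genes. In protein-coding genes with an equal GC content of that 1 kb, the cover was 3.13% for ligands and 2.79% for receptors. These data hold no region at this place for 19 of 19 ligands, and 15.6% of the protein-coding genes of equal GC had one. Of the 15 receptors, 2 had one, FZD1 and RYK, close to the 2.28 at equal GC. In HCT116/ABsh-1 the cover was 0.526% for ligands, from WNT10B alone, and 2.67% for receptors, from FZD3, ROR1 and RYK.

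Matches to the Tcf/Lef sequence were few. The words CTTTGAT and CTTTGAA were searched on both strands, and they differ in their last base, so a position can match only 1 of them. In HCT116/Scrsh, 2 of 24 distinct KDM3B regions at members (8.33%) held a match, beside 6.57% of all regions of the list at the same widths. None of 16 KDM3B regions in HCT116/ABsh-1 (4.38% of that list) and none of 30 H3K9me2 regions in HCT116/Scrsh (3.88%) did. Of 313 H3K9me2 regions in HCT116/ABsh-1, 14 held a match, 4.47% beside 4.61%. The KDM3B matches lay in WNT5B intron 3 and LRP5 intron 1 and are shown with the word in capitals.
WNT5B, hg19 chr12:1743914-1743934, plus strand: ctttctcCTTTGAAgctgctg
LRP5, hg19 chr11:68110258-68110278, plus strand: ctctggcCTTTGAAgaatgca

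H3K9me2 in HCT116/Scrsh was found in the TSS windows of 7 genes. WNT3 had the widest cover, 400 bp centred 642 bp upstream of the canonical TSS, with a score above 96.6% of the list. WNT10A and FZD7 had 200 bp each, and WNT2, WNT3A, WNT5B and FZD1 had 100 bp each. All 7 genes carried H3K9me2 in HCT116/ABsh-1 as well, and no member was in the HCT116/Scrsh list alone. This is close to the general share, since 88.4% of protein-coding genes with H3K9me2 in HCT116/Scrsh also had it after the knockdown.

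In HCT116/Scrsh, the window regions of WNT5B, WNT10A, FZD1 and FZD7 lay in coding sequence. The WNT5B region was centred in exon 5, the WNT10A region in exon 3, and the Frizzled regions in the only exon of each gene, at 2302 bp from the TSS in FZD1 and 1822 bp in FZD7. FZD1 and FZD7 are closely related receptors of the β-catenin pathway. The sequences are shown because each region lay inside a wider H3K9me2 region of HCT116/ABsh-1. They are given on the plus strand with CG dinucleotides in capitals, of which there were 7, 12, 6 and 15.
WNT5B, H3K9me2 in HCT116/Scrsh, hg19 chr12:1755101-1755200: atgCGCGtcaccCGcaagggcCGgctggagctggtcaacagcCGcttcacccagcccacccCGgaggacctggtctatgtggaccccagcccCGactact
WNT10A, H3K9me2 in HCT116/Scrsh, hg19 chr2:219754801-219755000: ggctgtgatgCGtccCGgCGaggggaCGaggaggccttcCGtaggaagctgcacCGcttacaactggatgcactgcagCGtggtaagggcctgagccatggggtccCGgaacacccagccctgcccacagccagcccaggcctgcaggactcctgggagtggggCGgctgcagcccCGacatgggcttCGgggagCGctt
FZD1, H3K9me2 in HCT116/Scrsh, hg19 chr7:90896001-90896100: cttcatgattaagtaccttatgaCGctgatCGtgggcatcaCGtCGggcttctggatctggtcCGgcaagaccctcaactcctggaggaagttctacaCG
FZD7, H3K9me2 in HCT116/Scrsh, hg19 chr2:202900301-202900500: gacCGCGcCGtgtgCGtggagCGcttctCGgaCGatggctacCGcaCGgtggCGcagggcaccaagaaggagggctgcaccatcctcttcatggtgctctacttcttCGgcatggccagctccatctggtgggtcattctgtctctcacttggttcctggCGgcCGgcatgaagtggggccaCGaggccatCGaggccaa

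Windows and gene bodies together held 30 distinct H3K9me2 regions of HCT116/Scrsh, 15 at ligands and 15 at receptors. At the ligands, 14 of 15 overlapped a region of HCT116/ABsh-1, and the exception was in WNT2 intron 3. At the receptors 6 of 15 did, and none of the 5 in the body of ROR1 did. In the whole list 35.4% overlapped. Base composition moved with this difference: the regions averaged 63.0% GC at ligands and 51.6% at receptors. Among regions of the HCT116/Scrsh list with equal GC, 10.7 of 15 and 3.84 of 15 would overlap, a difference in the same direction as that found. Of the 15 receptor regions, 5 were at ROR1 and 7 at ROR2, so the receptor count rests largely on these long genes. Whether ligands and receptors differ beyond base composition was not tested.

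In HCT116/ABsh-1, H3K9me2 regions covered more bases in the TSS windows of ligands than in those of receptors. The TSS windows of ligands held 0 to 8853 covered bases with a median of 1538, and those of receptors 0 to 2340 with a median of 200. As a share of all window bases this was 9.61% for ligands and 3.26% for receptors. The means were 1733 and 623 bases per gene, and protein-coding genes of equal GC had 1709 and 801, a difference in the same direction. WNT3 alone held 8853 of the 32927 covered bases of the ligand windows, so the ligand mean leans on 1 gene. In HCT116/Scrsh the means were 47.4 and 20 bases.

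**Figure D2:**
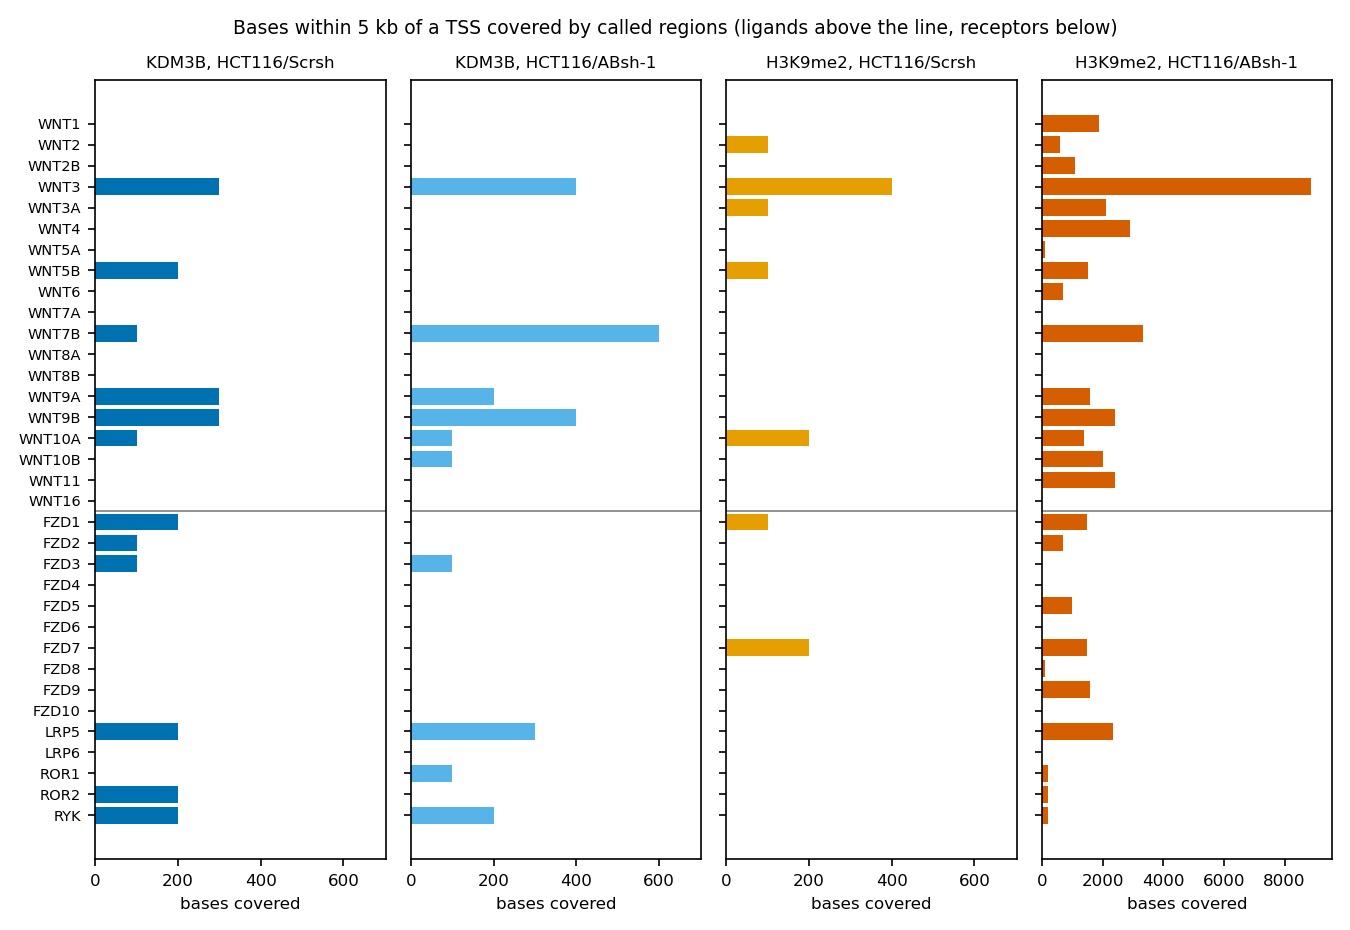
Bases within 5 kb of any annotated TSS that are covered by called regions (horizontal axis), for each gene (vertical axis) and each of the 4 lists. The horizontal scale of the H3K9me2 panel of HCT116/ABsh-1 is wider than the others, and WNT3 reaches 8853 bases there, while the highest value in the other panels is 600, for KDM3B at WNT7B in HCT116/ABsh-1.

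WNT3 had the largest H3K9me2 cover of the 34 windows, with 13 regions and 8853 of 30964 bases (28.6%) around its 8 annotated starts. Of the 20162 protein-coding genes, 167, WNT3 among them, had as many covered bases. Its widest region, 1900 bp, spanned the canonical TSS from the upstream side, scored above 99.7% of the list and contained the 400-bp region of HCT116/Scrsh. WNT7B followed with 12 regions and 3348 bases, and WNT4, a ligand of kidney and gonad development, with 8 regions and 2900 bases.

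A middle group of ligands held 1100 to 2400 bases. WNT9B and WNT11 had 2400 bases each, WNT3A 2100, WNT10B 2000, WNT1 1900, WNT9A 1600, WNT5B 1538, WNT10A 1400 and WNT2B 1100. WNT1, the founding member of the family, and WNT3A, WNT9A and WNT10B have short windows, so that 16% to 21.0% of their windows was covered. WNT2 also lies partly under transcripts annotated to a neighbouring gene. WNT6 (688 bases), WNT2 (600) and WNT5A (100) had the least among ligands with a region. WNT5A, the main ligand of the ROR receptors, had a single 100-bp region in intron 1 with a score above 23.7% of the list.

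Among the receptors, LRP5 had the most, with 10 regions and 2340 bases. FZD9 had 1600 bases in 6 regions, FZD1 and FZD7 1500 bases each in 1 region, FZD5 1000, FZD2 700, and ROR1, ROR2 and RYK 200 each. FZD8 had 100 bases, 426 bp upstream of its TSS. Of the 10 Frizzled genes, 6 had H3K9me2, and 5 of these 6 had regions in the coding exon. Of the other receptors, LRP5, ROR1, ROR2 and RYK had H3K9me2 in the window and LRP6 had none.

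The position of H3K9me2 in HCT116/ABsh-1 differed between ligands and receptors. Most Frizzled genes carry their coding sequence in a single exon close behind the TSS, and the regions sat in this exon rather than over the start. In FZD1 a 1500-bp region (chr7:90894701-90896200) was centred 1702 bp downstream, and in FZD7 a 1500-bp region (chr2:202899501-202901000) was centred 1672 bp downstream. Both scored above 97.3% of the list. The widest regions of FZD2 and FZD5 were 600 and 700 bp, centred 1648 and 2180 bp downstream.

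Between 1000 and 2500 bp downstream of the canonical TSS, an interval chosen after the profile was seen, H3K9me2 covered 23.1% of receptor bases. Protein-coding genes with an equal GC content of the 10-kb window around the canonical TSS had 5.56%. The GC content of the interval itself was not matched. The H3K9me2 regions of FZD1 and FZD7 held 64.1% and 65.2% GC, in windows of 46.8% and 51.6%. The receptors behind the 23.1% were FZD1, FZD2, FZD5, FZD7, FZD9 and ROR1. In the same interval 18.2% of ligand bases were covered, beside 13.7% at equal GC of the 10-kb window. Within 500 bp of the TSS the order was the other way round, with 10.6% of bases covered in ligands and 0.667% in receptors, where FZD8 was the only gene with a region. Protein-coding genes with an equal GC content of this 1 kb had 4.39% and 4.58%. The GC content there was alike in the groups, with medians of 70.2% and 70.7%.

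**Figure D3:**
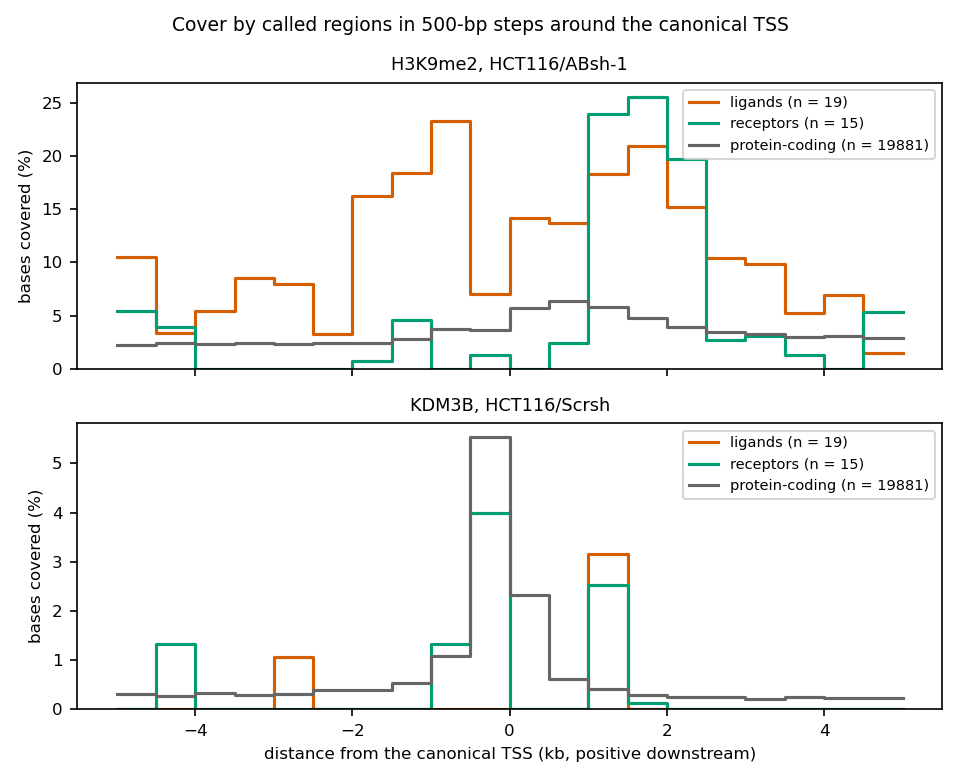
Percent of bases covered by called regions (vertical axis) in 500-bp steps of distance from the canonical TSS (horizontal axis, kb), for 19 ligands, 15 receptors and 19881 protein-coding genes. In the upper panel receptors reach 25.6% between 1500 and 2000 bp downstream and ligands 23.3% between 500 and 1000 bp upstream, and in the lower panel KDM3B of HCT116/Scrsh is near the TSS in receptors and protein-coding genes.

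Upstream of the start, between 500 and 5000 bp, the ligands had 10.8% of bases covered and the receptors 1.63%. Protein-coding genes of equal GC in the 10-kb window had 7.99% and 2.67%. Between 500 and 5000 bp downstream the values were 11.4% and 9.33%, beside 11.8% and 4.68%. H3K9me2 therefore lay on both sides of the ligand starts and mainly on the downstream side of the receptor starts. The 13 ligands with an upstream region were WNT1, WNT2, WNT2B, WNT3, WNT3A, WNT4, WNT6, WNT7B, WNT9A, WNT9B, WNT10A, WNT10B and WNT11, and the 3 receptors were FZD9, LRP5 and RYK. Equal GC gave 9.76 ligands and 4.06 receptors with an upstream region.

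**Figure D4:**
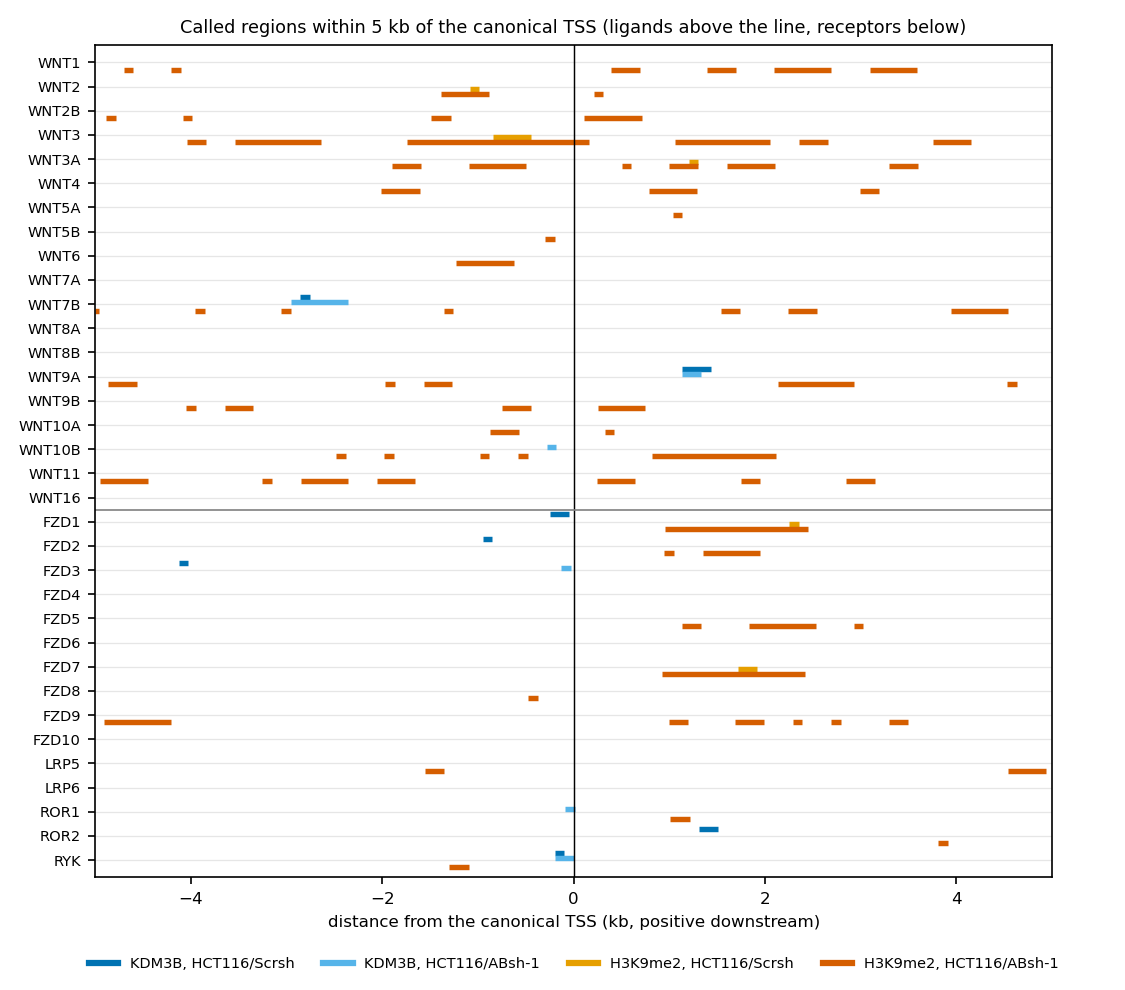
Called regions within 5 kb of the canonical TSS of each gene (vertical axis), by distance from that TSS (horizontal axis, kb, positive downstream), coloured by list. Each bar is 1 region at its true width, and regions near other annotated starts are not drawn. The H3K9me2 regions of FZD1, FZD2, FZD5 and FZD7 in HCT116/ABsh-1 stand downstream of the TSS and those of the ligands on both sides.

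H3K9me2 cover in HCT116/ABsh-1 followed the base composition of the windows. In protein-coding genes, the share with H3K9me2 in HCT116/ABsh-1 rose from 8.48% at 30 to 35% window GC to 96.3% at 60 to 65%, and the mean cover from 29.0 to 4031 bases. The regions of this list averaged 61.4% GC, beside 52.8% in HCT116/Scrsh. All 10 members above 55% GC, 9 ligands and FZD9, had a region. The part of base composition in these calls was not tested beyond the equal-GC figures.

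Against that background, WNT7A, FZD10 and FZD8 stood low for their GC. WNT7A had no H3K9me2 region in its window, whereas 86.2% of protein-coding genes of equal GC did. FZD10 had none either, and 79.7% of the genes of its GC did. FZD8 had a region, as did 86.8% of the genes of its GC, but it held 100 bases, where the bin from 50 to 55% had a mean of 1190. On the other side, FZD1 held 1500 bases at 46.8% GC, where the bin from 45 to 50% had a mean of 356 bases. WNT3 held 8853 at 56.3% GC, where the bin from 55 to 60% had a mean of 2470. Of the other ligands in that bin, WNT4 (2900) was above this mean. WNT1 (1900), WNT6 (688), WNT10A (1400) and WNT11 (2400) were below it. WNT3A (2100), WNT9A (1600) and WNT7B (3348) were below the mean of 4031 in the bin from 60 to 65%. Window length was not matched in these comparisons. The windows of WNT7A, FZD10 and FZD8 held 14959, 10006 and 10001 bp, beside a median of 19312 bp in protein-coding genes. Those of FZD1 and WNT3 held 10001 and 30964 bp.

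**Figure D5:**
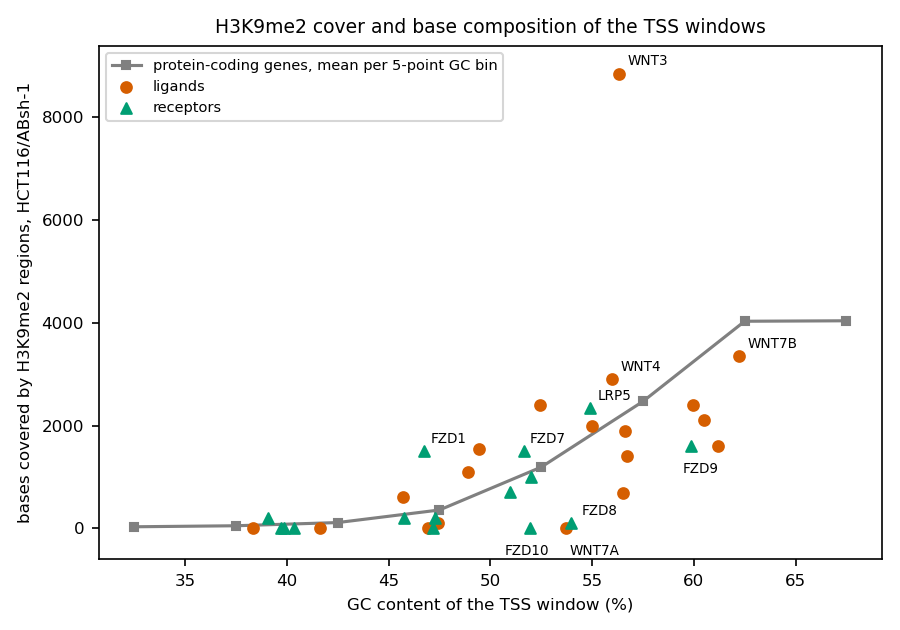
H3K9me2 cover of the TSS window in HCT116/ABsh-1 (vertical axis, bases) against window GC content (horizontal axis, percent) for each ligand and receptor gene. The grey line joins the means of protein-coding genes in bins of 5 percentage points. WNT3 at 8853 bases stands far above the line, and WNT7A and FZD10 lie at 0.

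The other members without H3K9me2 in the window were poor in GC. WNT8A, WNT8B, WNT16, FZD3, FZD4, FZD6 and LRP6 had window GC contents of 38.3% to 47.2%, and 18.3% to 49.5% of protein-coding genes of their GC had a region. WNT8A and WNT8B are known from early axis formation, WNT16 from bone, and FZD4 also serves as the receptor of norrin in retinal vessels. WNT7A, WNT8A, WNT8B, WNT16, FZD4, FZD6, FZD10 and LRP6 had no region of any list in their windows. These 8 were 4 of 19 ligands and 4 of 15 receptors, beside 31.6% of protein-coding genes.

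In gene bodies, as in the windows, H3K9me2 of HCT116/ABsh-1 covered more of the ligands than of the receptors. In HCT116/ABsh-1, 17 of 19 ligands and 9 of 15 receptors had H3K9me2 in the body (51.2% of protein-coding genes), where equal GC and gene length gave 14.3 and 8.67. In HCT116/Scrsh the counts were 7 and 5 (15.9% of protein-coding genes), beside 3.0 and 3.12. KDM3B was in the bodies of 5 ligands and 4 receptors in HCT116/Scrsh (34.3%) and of 4 and 4 in HCT116/ABsh-1 (19.1%), beside 7.46 and 5.50, and 4.52 and 3.18. The covered share of all body bases for H3K9me2 in HCT116/ABsh-1 was 10.9% in ligands and 2.13% in receptors, a pooled value in which the long genes ROR1 and ROR2 weigh most. Averaged per gene, body cover was 12.2% in ligands and 8.14% in receptors, and window cover 10.3% and 4.81%.

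WNT7B had the most extensive body cover, with 34 regions and 29355 of 56797 bases (51.7%) in HCT116/ABsh-1. Of protein-coding genes, 171, WNT7B included, had at least this share. Its widest region, 3700 bp in intron 3 (chr22:46319701-46323400), was also the widest at any member and scored above 99.8% of the list. In HCT116/Scrsh the WNT7B body held 2 regions, of 200 and 100 bp, and each lay within a wider region of HCT116/ABsh-1.

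Other well covered ligand bodies were those of WNT1 (39.5%), WNT10B (25%), WNT11 (19.8%), WNT3 (16.7%) and WNT9A (16.4%). WNT3 had 21 body regions with 11800 bases and WNT3A 22 with 6872 bases, among them a 2400-bp region that runs from the last exon past the end of the gene. WNT7A, which had nothing near its starts, held 6 body regions with 1200 bases, and WNT8B held 2 with 800 bases, the wider of them 700 bp centred in exon 6. WNT8A and WNT16 had none.

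Among receptor bodies, FZD7 had the largest covered share (32.7%), followed by FZD9 (23.5%), FZD1 (21.8%), FZD2 (18.5%) and FZD5 (13.7%), all short genes. Of the long genes, ROR2 and LRP5 held many regions at a low share, and the others held few or none. ROR2 had 44 regions with 12500 bases over 387138 bp (3.23%), a body that this annotation extends by long alternative transcripts, and LRP5 had 41 regions with 11300 bases over 136685 bp (8.27%). ROR1 had 6 regions with 700 bases over 407494 bp, and RYK 3 with 600 bases over 185555 bp. FZD3, FZD4, FZD6, FZD8, FZD10 and LRP6 had none in the body.

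Windows and bodies together held 313 distinct H3K9me2 regions in HCT116/ABsh-1, 203 at ligands and 110 at receptors. Median widths were 300 bp at ligands, 200 bp at receptors and 200 bp in the list, and 17 ligand regions (8.37%) and 4 receptor regions (3.64%) reached 1 kb, beside 4.88% of the list. Most centres lay in introns, 122 of 208 ligand assignments and 76 of 110 receptor assignments, where a region shared by neighbouring genes counts for each. Coding exons held 23 and 17 of them, and no centre fell in a 5′ UTR. Of the 110 receptor assignments, the long genes LRP5 and ROR2 held 42 and 44. The shares of these features in the whole list were not computed, so no excess or shortage can be read from the counts.

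KDM3B in control cells and H3K9me2 after the knockdown were compared gene by gene and base by base. All 6 ligands with KDM3B in the HCT116/Scrsh window had H3K9me2 in HCT116/ABsh-1, as did 5 of 6 receptors, with FZD3 the exception. Of protein-coding genes with KDM3B, 3762 of 7049 did, a share not matched for GC. At equal window GC, with or without KDM3B, 63.7% to 96.4% of protein-coding genes had H3K9me2 for these 6 ligands. For the 6 receptors the range was 19.6% to 89.0%. Whether H3K9me2 went with KDM3B beyond base composition was not tested. None of the 24 distinct KDM3B regions overlapped an H3K9me2 region, and in the whole list 0.533% did. The gap between them was 100 bp at the closest, upstream of WNT7B, with a median of 1550 bp. Of the 24, 9 had an H3K9me2 region within 1 kb, beside 12.5% of the list, again not matched for GC. Of the same 24, 7 shared bases with the KDM3B list from HCT116/ABsh-1, beside 25.7% of all KDM3B regions of control cells.

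Of the 4 genes with KDM3B in the HCT116/Scrsh window only, WNT5B, FZD1, FZD2 and ROR2, all had H3K9me2 in HCT116/ABsh-1, as did 49.7% of the protein-coding genes with this KDM3B pattern. The nearest H3K9me2 region lay 1000 bp from the former KDM3B region at FZD1, 1800 bp at FZD2, 2300 bp at ROR2 and 4500 bp at WNT5B. The 2 genes with KDM3B in HCT116/ABsh-1 only, WNT10B and ROR1, had H3K9me2 in their windows as well, with 2000 and 200 bases. Of the protein-coding genes of that pattern, 53.1% had H3K9me2. Neither the 49.7% nor the 53.1% was matched for GC.

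Several WNT genes are neighbours, so their values are not independent. WNT3 and WNT9B shared 3 H3K9me2 regions of HCT116/ABsh-1 and the KDM3B region in each list, and WNT1 and WNT10B shared 2 H3K9me2 regions. The span from WNT3 to WNT9B (chr17:44839872-44964096) held 37 H3K9me2 regions with 16300 bases in HCT116/ABsh-1 and 5 with 1200 bases in HCT116/Scrsh. The WNT9A to WNT3A span on chromosome 1 held 43 regions with 13472 bases and 4 with 700 bases. The WNT6 to WNT10A span held 14 and 1, and the WNT10B to WNT1 span 10 and 0.

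The rest of the pathway was read from 5 lists by role. H3K9me2 in HCT116/ABsh-1 was in the TSS windows of 3 of 3 genes for ligand release or the ligand's lipid (equal GC 1.92). NOTUM was counted in this first list and not among the inhibitors. H3K9me2 was also at 7 of 9 genes of the R-spondin system, which acts on the level of Frizzled receptors (4.13). It was at 10 of 12 secreted or membrane inhibitors (5.96), 6 of 11 cytoplasmic relay genes (6.98) and 2 of 3 other co-receptors (1.61). In HCT116/Scrsh these counts were 0, 1, 2, 0 and 0. KDM3B in HCT116/Scrsh was at 1, 4, 2, 6 and 1 of them, where equal GC gave 1.09, 3.16, 4.23, 4.23 and 0.955, so that the inhibitors lay below that figure. In HCT116/ABsh-1 it was at 1, 2, 2, 2 and 1, where equal GC gave 0.638, 1.73, 2.31, 2.39 and 0.518. The genes with most H3K9me2 in HCT116/ABsh-1 were DVL1, which relays the signal from Frizzled (5998 bases), NOTUM, which removes the lipid from Wnt (4716 bases), and the kinase gene CSNK1E (2600 bases). For H3K9me2 in HCT116/ABsh-1 the relay genes lay below the equal-GC figure and the other lists above it, without an error estimate.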

How the data were processed

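ChIP-seq libraries of KDM3B and H3K9me2 from HCT116/Scrsh and HCT116/ABsh-1 cells were analysed, 1 per antibody and population, and the 2 input libraries were not analysed here. Per the study's methods, the authors mapped reads to hg19 with Bowtie (also named in the submitters' processing notes, version not given in the sources used here). They kept unique positions with 1 read each, and called 100-bp windows by a Poisson test of ChIP over input. The methods also ask for 2 neighbouring windows of the same significance. Yet single 100-bp windows made up 41.3% (H3K9me2, HCT116/ABsh-1) to 72.9% (H3K9me2, HCT116/Scrsh) of the regions of a list. How the lists meet that rule is not stated. The deposited lists give each region's position and a score, a whole number of at least 2 whose meaning is not stated, so it was used only for ranks. Depth is unknown.

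Genes, starts and exons came from GENCODE release 44 for hg19, and sequence from the GRCh37 assembly. A region counted for a gene when at least 1 bp overlapped. Equal-GC figures average, over members, the share of other protein-coding genes within 2 percentage points of window GC (and, for bodies, within 25% of length). For cover within 500 bp of the canonical start, the GC content of that 1 kb was used. For the other intervals around it, the GC content of the 10-kb window was used. Regions printed in full are reference sequence. Values were computed in Python 3.11.15 with numpy 2.4.6 and pandas 2.3.3, and overlaps were tested on simulated data. All 34 members were named, with pathway genes given by counts and up to 3 by name. Members, lists and rules were chosen with earlier results of these data known.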

Additional observations from a re-analysis of the deposited data

How the results depend on the processing

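Of 108 alternatives for 24 results, 90 stayed within 1.5 times the reported value. With windows of 2 kb, KDM3B was at 1 ligand in control cells, and HCT116/ABsh-1 had 2, while H3K9me2 in HCT116/Scrsh was at 1 receptor. With windows of 10 kb, KDM3B in HCT116/ABsh-1 was at 10 ligands. With the canonical TSS only, KDM3B was at 2 ligands in control cells, and HCT116/ABsh-1 had 3, while H3K9me2 in HCT116/Scrsh was at 3 ligands. The 50% of each list with the highest scores left H3K9me2 in HCT116/Scrsh at 3 ligands and 1 receptor, KDM3B in HCT116/Scrsh at 1 receptor by window and 1 by body, and KDM3B in HCT116/ABsh-1 at 2 receptors by body. Equal numbers of regions per antibody left H3K9me2 in HCT116/ABsh-1 at 7 ligands by window, 10 by body and 5 receptors by window, and KDM3B in HCT116/Scrsh at 1 receptor by window and 1 by body. Merging regions less than 1 kb apart gave 197 distinct H3K9me2 regions in HCT116/ABsh-1 in place of 313. These settings keep fewer or more regions or bases by construction. No paired analysis was possible because each group has 1 library and no test was made.

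With 1 library per antibody and population, no difference has an error estimate, and differences between the cell populations and between the libraries cannot be told apart. The depth of the libraries is unknown. KDM3B at the ligands rests largely on regions near alternative starts, and the overlap of H3K9me2 regions with coding exons of the Frizzled genes rests on few genes.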
